A study of Mus musculus with 68 samples.

Results

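Gzme encodes granzyme E, a serine protease of the granules of cytotoxic lymphocytes, and its level was set against that of every other gene in papillomas of 16 backcross mice of intermediate susceptibility. The 19 intermediate mice, those with 2 to 7 papillomas at 20 weeks, were ranked by their mean log2 level of 1 Gzme probeset, and the 8 highest (14 papillomas) were compared with the 8 lowest (15 papillomas); 3 mice with 6 papillomas lay in between. The 16 mice hold 29 of the 68 arrays and 16 of the 37 mice of the series. Gzme itself chose the groups, so its own values are a description with no test.

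All mice were FVBBX animals, offspring of a [SPRET/Ei X FVB/N] F1 crossed back to FVB/N, so that at any autosomal locus an animal carries either 1 Mus spretus allele beside an FVB/N allele or FVB/N alleles alone. From 8 to 12 weeks of age all of them, in every group used here, received a single dose of the carcinogen DMBA on shaved back skin and then the tumor promoter TPA, given 2 times a week for 20 weeks. Each array measured the RNA of 1 whole papilloma, tumor and stroma together. There was no untreated group, and no genotypes were analysed here. The high and low groups therefore differed by their own Gzme level and by whatever goes with it, not by a treatment.

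Granzymes are released together with perforin and enter target cells, where they cleave proteins; granzymes A and B are the best known for killing tumor cells. The mouse genome carries a run of related genes on chromosome 14 in which Gzmb, Gzmc, Gzmd, Gzme, Gzmf, Gzmg and Gzmn lie beside the mast cell proteases (Mcpt1, Mcpt2, Mcpt4, Mcpt8, Cma1) and cathepsin G (Ctsg). Members of such a run are near copies, and the annotation assigns the probeset that ranked the mice to both Gzme and Gzmd. Another Gzme probeset is assigned to Gzme alone and chose the same 8 high and 8 low mice. Whether its probes also bind near copies was not examined.

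The promoter windows of Gzme and Gzmd show how close these neighbours are. Both are taken from RefSeq (GRCm38.p6, minus strand, 250 bases before to 50 after the gene start, 5′ to 3′), with capitals where a base differs from the other gene or has no partner inside a global alignment. The last base of Gzme lies past the end of the Gzmd window in that alignment and is not marked. They lie at chr14:56120576-56120875 for Gzme and chr14:56132544-56132843 for Gzmd.
Gzme: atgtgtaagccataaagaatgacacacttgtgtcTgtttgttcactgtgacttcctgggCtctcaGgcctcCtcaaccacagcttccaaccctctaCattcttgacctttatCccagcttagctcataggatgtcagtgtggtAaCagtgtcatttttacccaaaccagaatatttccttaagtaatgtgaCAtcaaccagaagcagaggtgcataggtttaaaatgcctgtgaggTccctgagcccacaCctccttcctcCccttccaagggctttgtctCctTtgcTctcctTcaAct
Gzmd: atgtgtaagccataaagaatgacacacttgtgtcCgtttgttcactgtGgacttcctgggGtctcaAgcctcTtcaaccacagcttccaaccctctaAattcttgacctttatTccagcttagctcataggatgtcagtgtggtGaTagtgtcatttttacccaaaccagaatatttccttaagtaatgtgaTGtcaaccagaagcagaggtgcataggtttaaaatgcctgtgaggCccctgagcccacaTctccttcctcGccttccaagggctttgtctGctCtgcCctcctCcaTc
Of 300 aligned columns, 281 (93.7%) were identical. The windows of Gzmf, Gzmg and Gzmc matched that of Gzme in 87.5%, 87.2% and 84.7% of aligned columns, and those of Gzmn and Gzmb in 50.6% and 51.1%. The cAMP response element TGACGTCA was found in 3 of the 7 windows, those of Gzmf, Gzmg and Gzmc, and in 1.79% of all 32851 promoter windows of the table. The AP-1 site TGANTCA was found in that of Gzmb only, against 7.81% of all windows, and the Runx site TGTGGTT in 6 of 7, all but Gzmn, against 5.27%. Both strands were searched. A match is a description of these letters and not of a bound factor.

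The mouse means of Gzme lay between 5.77 and 8.38 in the high group (log2 level, median 7.09, mean 7.05 ± 0.88, SD, n = 8) and between 3.24 and 5.23 in the low group (median 3.63, mean 3.93 ± 0.71, SD, n = 8). On an array whose own median lay between 5.19 and 5.29, this put Gzme above the median of all probesets on 13 of 14 arrays of the high group and on 2 of 15 of the low group. The limits of the groups were narrow. The highest low mouse stood at 5.23 and the nearest mouse left out at 5.25; the lowest high mouse stood at 5.77 and its neighbour at 5.58. The other mice of the series spanned a wider range, 4.99 to 10.81 in the 6 resistant and 3.07 to 6.11 in the 12 susceptible mice.

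Papillomas of one mouse mostly had like levels of Gzme, with exceptions. Over the 16 intermediate mice with 2 arrays, the difference between both papillomas had a median of 0.69 and ran from 0.03 to 4.06 on the log2 scale. The largest was in mouse 14, one of the 3 mice left out, whose papillomas stood at 7.61 and 3.55. Mouse 5 of the high group (7.61 and 5.03) and mouse 3 of the low group (5.82 and 3.55) were split in the same manner. The intraclass correlation of Gzme, the share of its variance that lies between rather than within mice, was 0.62 by the ranking probeset and 0.57 by that assigned to Gzme alone.

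**Figure D1:**
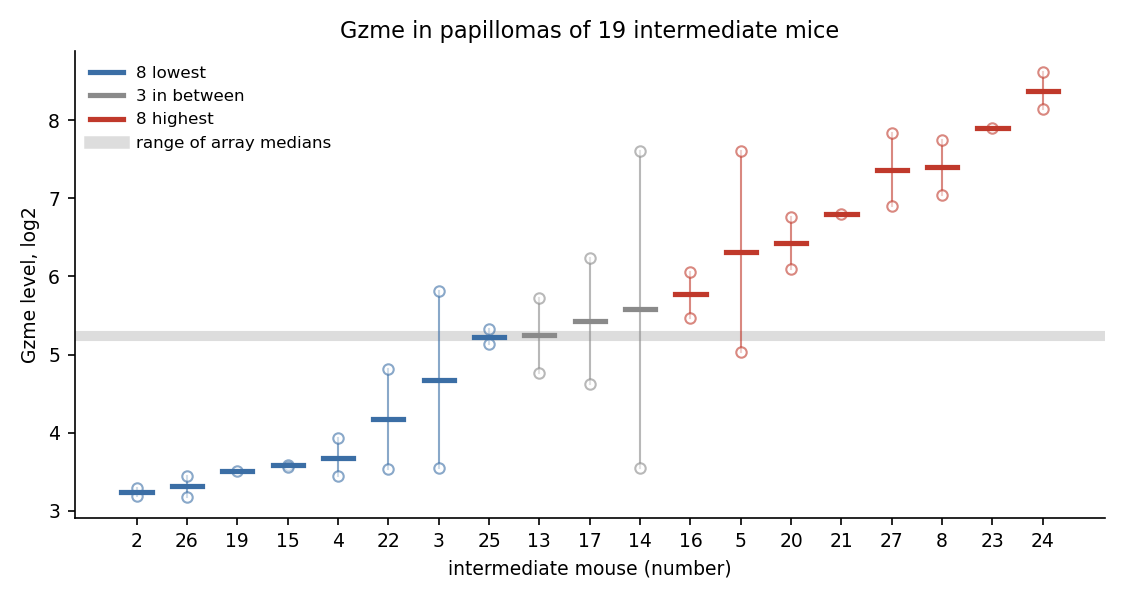
Log2 level of Gzme (ranking probeset, vertical axis) in each papilloma of the 19 intermediate mice (open circles, joined within a mouse), ordered by the mouse mean (bars); the grey band is the range of the 68 array medians. The 8 highest means run from 5.77 to 8.38 and the 8 lowest from 3.24 to 5.23, and mouse 14 holds the widest pair, 7.61 and 3.55.

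The other granzymes of the run stayed low or differed little. Gzmd, Gzmf, Gzmg, Gzmc and Gzmn lay between 2.51 and 4.44 in all 16 mice, well under the array medians, and none of their probesets passed the filter on low values. Their differences ran from -0.07 (Gzmn) to 0.20 (1 of the Gzmd probesets). Gzmb, the granzyme of activated killer cells, was measured at 4.27 to 6.08 in the high group (median 4.93) and at 4.79 to 6.80 in the low group (median 5.17), with 3 of 8 high mice below all low ones, a difference of -0.38 ± 0.32 (SE; limma, adjusted p = 0.783).

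The mast cell proteases of the run varied widely in both groups. Mcpt2 lay at 6.48 to 11.32 in high mice and at 5.09 to 9.45 in low mice (difference 1.32 ± 0.76, SE; limma adjusted p = 0.666), and Mcpt4 at 6.78 to 9.54 against 6.28 to 8.60 (0.88 ± 0.46, SE; adjusted p = 0.629). The groups overlapped for both. Within the start cohorts, as numbered on the labels of the mice, the Mcpt2 difference was 2.07 in cohort 2, -0.33 in cohort 6 and 4.53 in cohort 7, so that its direction was not the same in each. Of the 12 tested genes nearest to Gzme, 6 on each side, those other than granzymes and mast cell proteases were Ctsg (-0.22), Atp12a, Cenpj (-0.02), Parp4, Mphosph8 (0.13) and Pspc1 (-0.13). Atp12a, the alpha subunit of a proton pump, lay at 6.62 to 8.63 in high mice and 4.82 to 7.83 in low mice, a difference of 1.02 ± 0.43 (SE; limma adjusted p = 0.564). The Parp4 probesets disagreed, with 0.11 by one and -0.58 ± 0.17 (SE) by another.

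Across the array, the groups could not be separated at the chosen threshold. Of 21560 probesets of 12595 genes, 0 (0%) passed an adjusted p of 0.05 in limma, and the smallest adjusted p was 0.377. At unadjusted p-values, 1803 probesets (8.36%) were under 0.05, of which 1134 (5.26%) were higher and 669 (3.1%) lower in high Gzme mice, and 40 (0.186%) were under 0.001, of which 30 (0.139%) were higher and 10 (0.0464%) lower. With each array's median set to 0 the split was different, 19 higher of 44. In 9 probesets (0.0417%) the 8 high and the 8 low mice did not overlap. The genes described next are those of smallest p, and no one of them is a called difference.

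Of the 40 probesets under 0.001, 14 lay on chromosome 14, which carries Gzme: 1.95% of its 719 tested probesets. They belong to 13 genes, and they include the protease genes Plau and Ctsb. Plau encodes urokinase, the secreted activator of plasminogen. Its level, by the Plau probeset of larger difference, lay between 8.32 and 10.10 in the 8 high mice (median 8.81) and between 5.25 and 8.72 in the 8 low mice (median 6.34). No high mouse was below 8.32, while the low mice held 5 between 5.25 and 6.44 and 3 higher ones, mice 3, 25 and 19, at 7.91, 8.60 and 8.72. The difference was 2.09 ± 0.49 (SE), a ratio of 4.26 (limma, p = 0.000533, adjusted p = 0.473), and the second Plau probeset gave 1.49 ± 0.35.

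Ctsb encodes cathepsin B, a lysosomal cysteine protease. By its probeset of smallest p it lay between 8.02 and 9.42 in high mice (median 8.70) and between 7.29 and 8.34 in low mice (median 7.93), with 6 of 8 high mice above every low one. The difference was 0.86 ± 0.20 (SE; limma, adjusted p = 0.473). The 5 tested Ctsb probesets disagreed, with differences from -0.49 to 0.86.

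Ddhd1, a phospholipase that acts on phosphatidic acid, ranged from 6.49 to 7.73 in high mice (median 6.77) and from 5.32 to 6.77 in low mice (median 5.76). The low mouse at 6.77 was again mouse 25, the low mouse of highest Gzme. The difference was 1.07 ± 0.23 (SE; limma, adjusted p = 0.473), with 0.56 and -0.11 by its other tested probesets. Also higher with Gzme on chromosome 14 were Ap5m1, a subunit of an adaptor complex of endosomes (0.43 ± 0.08, SE, and 0.10 by another probeset), Fut11, a fucosyltransferase (0.59 ± 0.13, and 0.34 and 0.17 by others), Tinf2, a member of the shelterin complex of telomeres (0.59 ± 0.15), and Mapk8, the stress kinase JNK1, by 1 of its probesets (0.46 ± 0.11).

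Polr3a, the largest subunit of RNA polymerase III, had the smallest p of all probesets. It lay between 6.40 and 6.99 in high mice (median 6.58) and between 6.89 and 7.58 in low mice (median 7.25), and 7 of 8 high mice were below all low mice. The difference was -0.63 ± 0.12 (SE; limma, adjusted p = 0.377). With Gzme as a numeric term over all 19 intermediate mice, Polr3a was the single probeset (0.00464% of those tested) to pass, and fell by 0.20 ± 0.03 (SE) per log2 unit of Gzme (limma, adjusted p = 0.0339). Its second tested probeset differed by -0.05 between the groups.

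Prxl2a, a peroxiredoxin-like protein, was among the 9 probesets without overlap, at 5.98 to 7.71 in high mice (median 7.21) and at 7.73 to 8.69 in low mice (median 8.50), a difference of -1.15 ± 0.23 (SE; limma, adjusted p = 0.414). Fdft1, squalene synthase of the cholesterol pathway, lay at 9.86 to 10.89 against 10.77 to 11.49 (-0.72 ± 0.14, SE; adjusted p = 0.377). For both, other probesets of the same gene differed less, -0.10 for Prxl2a and -0.08 to 0.22 for the 3 others of Fdft1. The remaining lower ones were Lats2, a kinase of the Hippo pathway (-0.48 ± 0.12), Styx, a phosphatase-like protein without activity (-0.42 ± 0.10), and Gnpnat1, an enzyme of the synthesis of UDP-GlcNAc (-0.49 ± 0.12). Mtmr9, a myotubularin relative on the same chromosome, was just above the limit of 0.001 (-0.49 ± 0.12). The other tested Lats2 probesets all lay the opposite way (0.15, 0.33 and 0.11). Where probesets of a gene disagree, a transcript that differs in amount and a probe that binds the allele of one parent less well cannot be told apart without genotypes and probe sequences.

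**Figure D2:**
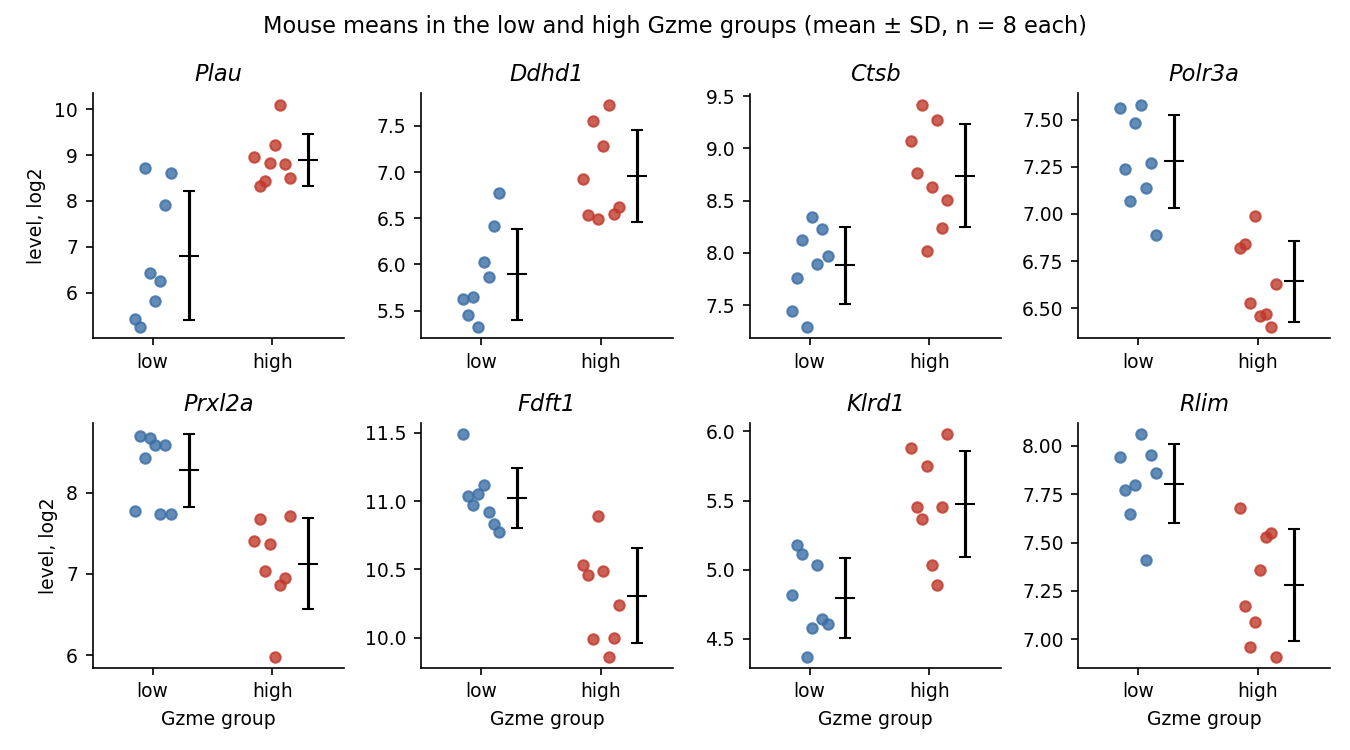
Mouse means (log2 level, vertical axes) of 8 genes in the low (blue) and high (red) Gzme groups, with mean ± SD beside the points, n = 8 mice each. Plau, Ddhd1, Ctsb and Klrd1 lie higher and Polr3a, Prxl2a, Fdft1 and Rlim lower in high mice; in this set Prxl2a alone has groups that do not overlap, and no gene passed the adjusted threshold.

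The probesets under 0.001 on chromosome 14 were not confined to the genes nearest to Gzme. In the RefSeq gene order, with 239 tested genes before Gzme and 176 after it, counted from Gzme at 0, they ran from place -200 (Fut11) to place 42 (Fdft1). None lay among the tested genes beyond place 42. Within 25 tested genes on either side stood 2 of them (Tinf2 and Lats2) among 74 probesets, within 50 stood 4 among 162, and within 100 stood 6 among 323. On the whole chromosome 14 of 719 probesets (1.95%) were under 0.001. Whether these genes were inherited together with Gzme was not tested. At an unadjusted p under 0.05, 128 of the 719 probesets (17.8%) of this chromosome differed, against 8.36% of all, 37 higher and 91 lower.

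**Figure D3:**
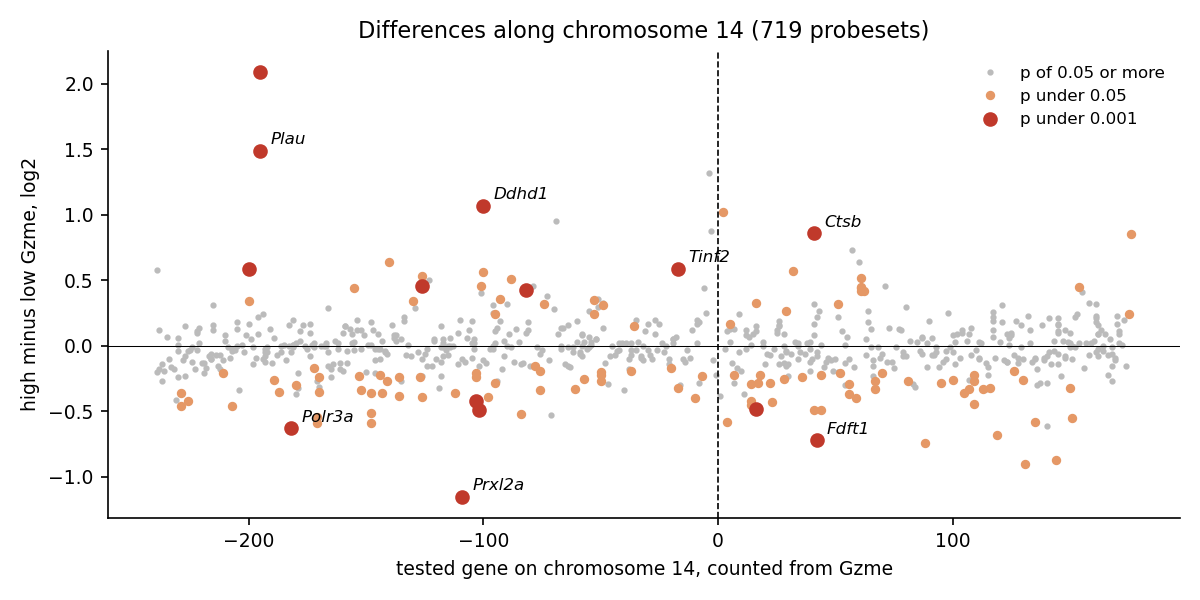
Difference between high and low Gzme mice (log2, vertical axis) for the 719 tested probesets of chromosome 14 in gene order, counted in tested genes from Gzme (dashed line); orange points have an unadjusted p under 0.05 and red points under 0.001. The 14 red points include both Plau probesets (2.09 and 1.49) and run from place -200 to place 42.

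Of all chromosomes only X had a larger share under 0.05, 111 of 597 probesets (18.6%), 94 of them higher; chromosomes 3 (13.8%) and 10 (12.9%) followed. Both groups hold 4 males and 4 females by their labels, but 3 of the 16 mice carry a sex label that Xist or Eif2s3y goes against: mice 21 and 24 of the high group, labelled male, and mouse 15 of the low group, labelled female. Among the other mice 2 of 6 high and 4 of 7 low were labelled male, so an equal number of males in both groups is not certain. Kdm5c, a histone demethylase that escapes X inactivation, differed by 0.68 ± 0.17 (SE) by its probeset of smallest p. Without these 3 mice the X chromosome had 67 of 597 probesets (11.2%) under 0.05 and 0 under 0.001, in place of 5, while chromosome 14 had 102 of 719 (14.2%) under 0.05 and 10 under 0.001. Of the 38 probesets of all chromosomes then under 0.001, 15 were among the 40.

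The coats of the groups differed in number, though not past the adjusted threshold. An agouti coat was recorded for 6 of 8 high and 1 of 8 low mice (two-sided Fisher's exact test, p = 0.0406, adjusted over 8 traits 0.324). Leaving out mice 15, 21 and 24, it was recorded for 4 of 6 and 1 of 7 (Fisher's exact test, p = 0.103, adjusted 0.789). With coat as a term, 24 probesets were under 0.001 and 0 of them lay on chromosome 14, whose share under 0.05 was then 8.76%. Among white mice, 2 high against 7 low, the differences were 2.22 for Plau, -0.68 for Polr3a and 1.14 for Ddhd1; among agouti mice, where mouse 25 is the single low one, they were 0.34, -0.25 and 0.20. The parts of coat and of Gzme in these values were not tested further.

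No difference past the threshold was found in the other traits tested. Papillomas at 20 weeks numbered 4.5 ± 1.51 in high and 4.25 ± 1.98 in low mice (mean ± SD, n = 8 each; exact permutation test of the difference in means, two-sided, p = 0.886), and at 24 weeks 5.88 ± 5.22 and 7.62 ± 5.42 (exact p = 0.554). Only mice with 2 to 7 papillomas at 20 weeks were used, so the range of that count was cut before the test. The test therefore cannot show whether Gzme goes with papilloma number over the whole series. The first papilloma appeared after 13.8 ± 2.71 weeks in 8 high and 12.6 ± 3.41 weeks in 7 low mice (exact p = 0.501), and days alive were 272 ± 44.8 in 8 high and 286 ± 41.5 in 7 low mice (exact p = 0.561). A carcinoma was profiled from 5 high and 7 low mice (Fisher's exact test, p = 0.569). None of these, nor sex or start cohort, had an adjusted p under 0.759. Sex was tested by the labels as given, some of which are in doubt, so the test cannot show that the sexes were balanced. Of the 4 origin labels of the mice, F1BSF2 was carried by 0 high and 3 low mice (exact test over all origins, p = 0.441, adjusted over 9 traits 0.732).

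Outside chromosome 14 the smallest p-values fell on genes of mixed roles. Helb, a DNA helicase, was higher by 0.53 ± 0.10 (SE), Rnf150, a RING finger protein, by 0.46 ± 0.09 with no overlap (6.77 to 7.18 against 6.17 to 6.77, apart by less than the rounding), and Dnajb14, a co-chaperone, by 0.49 ± 0.10. P2rx7, an ATP-gated channel of immune cells, was higher by 0.61 ± 0.14 and Slc30a7, a zinc transporter, by 0.65 ± 0.15. Cep57l1 (0.36 ± 0.08) and the X-linked Armcx1 (0.79 ± 0.19) were the last 2 of the 12 higher genes. Adjusted p-values in limma lay between 0.377 and 0.473. Other tested probesets of these genes gave 0.41 and -0.04 for Helb, -0.13 for Dnajb14, 0.02 for P2rx7 and 0.04 for Slc30a7.

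Lower with Gzme outside chromosome 14 were Pitpnc1, a phosphatidylinositol transfer protein (-0.41 ± 0.08, SE), and Adgrb1, an adhesion receptor (-0.29 ± 0.06), both without overlap of the groups. Pitpnc1 was lower by 7 more of its 9 tested probesets, -0.58 to -0.14, and at 0.02 by 1. Rlim, an X-linked ubiquitin ligase, differed by -0.52 ± 0.12 with -0.05 to 0.14 by its 3 other tested probesets, Sgsm1, a regulator of Rab proteins, by -0.46 ± 0.11, and BC052688, which has no given name, by -0.30 ± 0.08.

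Genes whose level was most like that of Gzme over the 19 mice were Tinf2 (Pearson r = 0.77), Ap5m1 (0.76), Mapk8 (another probeset, 0.74), Fam120c (0.73), Plau (0.72), Ddhd1 (0.71), Fut11 (0.71), Pan3 (0.71), Bmp10 (0.71) and Helb (0.70). These are descriptions over mice that share the ranking, with no test. Of the 10, 6 lie on chromosome 14, which holds 415 of the 12595 tested genes. Of genes the study ties to susceptibility, Il18, Spry2 and Map2k4 differed by 0.04 ± 0.30, -0.01 ± 0.16 and -0.03 ± 0.10, with 0.22 ± 0.15 by another Spry2 probeset of lower level, which is the one the study names, and Tslp, an epithelial cytokine, by -0.76 ± 0.88 with levels from 5.18 to 11.62 in the high and 5.61 to 9.58 in the low group.

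The 18 susceptible and resistant mice, which took no part in the ranking, gave values of the same genes that the ranking had not used. With class as a term, 0 of 21560 probesets (0%) followed Gzme at an adjusted p of 0.05 (limma), 11 (0.051%) had an unadjusted p under 0.001 and 1024 (4.75%) under 0.05. Of the 14 chromosome 14 probesets above, 13 had a slope of the same sign, 6 of them with an unadjusted p under 0.05, and 0 had that in the opposite direction. Of the 26 on other chromosomes, 23 had the same sign and 1 an unadjusted p under 0.05. The 6 were both Plau probesets, Fut11, Ctsb, Ddhd1 and Tinf2. Over all 21560 probesets 11972 had the same sign, 692 of them under 0.05, and 332 were under 0.05 with the opposite sign. Over the 719 of chromosome 14 these were 444, 51 and 10.

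For Plau the slope in these 18 mice was 0.65 per log2 unit of Gzme (unadjusted p = 0.00362), for Fut11 0.17 (0.00105) and for Ctsb 0.22 (0.0106). Polr3a had -0.10 (0.0738). All had an adjusted p of 0.998 in limma. Without the class term all 14 had the same sign and 11 of them were under 0.05, while of the 26 others 13 had the same sign and 0 were under 0.05. Of all probesets 10715 then had the same sign, and 2157 (10%) were under 0.05 in either direction. The slopes of intermediate and other mice differed for 0 probesets at an adjusted p of 0.05 in limma, for 4 (0.0186%) at an unadjusted p under 0.001 and for 702 (3.26%) under 0.05.

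Papilloma pairs gave a comparison that the ranking of mouse means did not use: whether, within 1 mouse, the papilloma with more Gzme also had more of the gene. Over the 16 intermediate mice with 2 papillomas, 0 probesets passed an adjusted p of 0.05 in limma (0%), 88 (0.408%) were under an unadjusted p of 0.001 and 2818 (13.1%) under 0.05. Of the 14 chromosome 14 probesets, 0 were under 0.05 in the direction seen between mice, and so were 0 of the 26 others, of which 4 were under 0.05 the opposite way. Much of the fit rests on mouse 14. Without it 13 probesets (0.0603%) were under 0.001 and 1142 (5.3%) under 0.05, and of these sets 0 of 14 and 1 of 26 went with the difference between mice. Over the 15 susceptible and resistant mice with 2 papillomas 1003 probesets (4.65%) passed the adjusted threshold, and over all 31 mice 35 (0.162%). Under an unadjusted 0.05 were 4465 (20.7%) and 2234 (10.4%). Of the 14 chromosome 14 probesets 3 and 1 were so in the direction seen between mice, and of the 26 others 9 and 4. Without mouse 32, whose papillomas differed most in Gzme, 0 probesets passed the adjusted threshold in the other mice (0%). In these 14 mice 43 (0.199%) were under 0.001, 1710 (7.93%) were under 0.05, and 2 of the 14 chromosome 14 probesets and 1 of the 26 others were so in the direction seen between mice.

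Plau had a slope of 0.65 ± 0.14 (SE) per log2 unit of Gzme between the 19 mouse means and of -0.02 ± 0.08 between papillomas of a mouse (0.09 ± 0.11 without mouse 14). For Ddhd1 these were 0.32 ± 0.07 and 0.03 ± 0.06 (0.03 ± 0.09), and for Polr3a -0.20 ± 0.03 and -0.03 ± 0.04 (-0.02 ± 0.06). Prxl2a had -0.33 ± 0.07 between mice and 0.31 ± 0.11 within them (0.12 ± 0.14). The differences between these pairs of slopes were not tested.

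These genes varied more between mice than between papillomas of a mouse. Intraclass correlations over the 16 pairs were 0.94 and 0.91 for the 2 Plau probesets, 0.88 for Ddhd1 and for Tinf2 and 0.82 for Polr3a, with a median of 0.73 over the 14 chromosome 14 probesets. It was 0.55 over the 26 of other chromosomes, chosen by the same contrast, 0.47 over all tested probesets of chromosome 14 and 0.48 over all tested. Choice by a difference between mice favours genes that vary between mice, so these medians are descriptions.

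**Figure D4:**
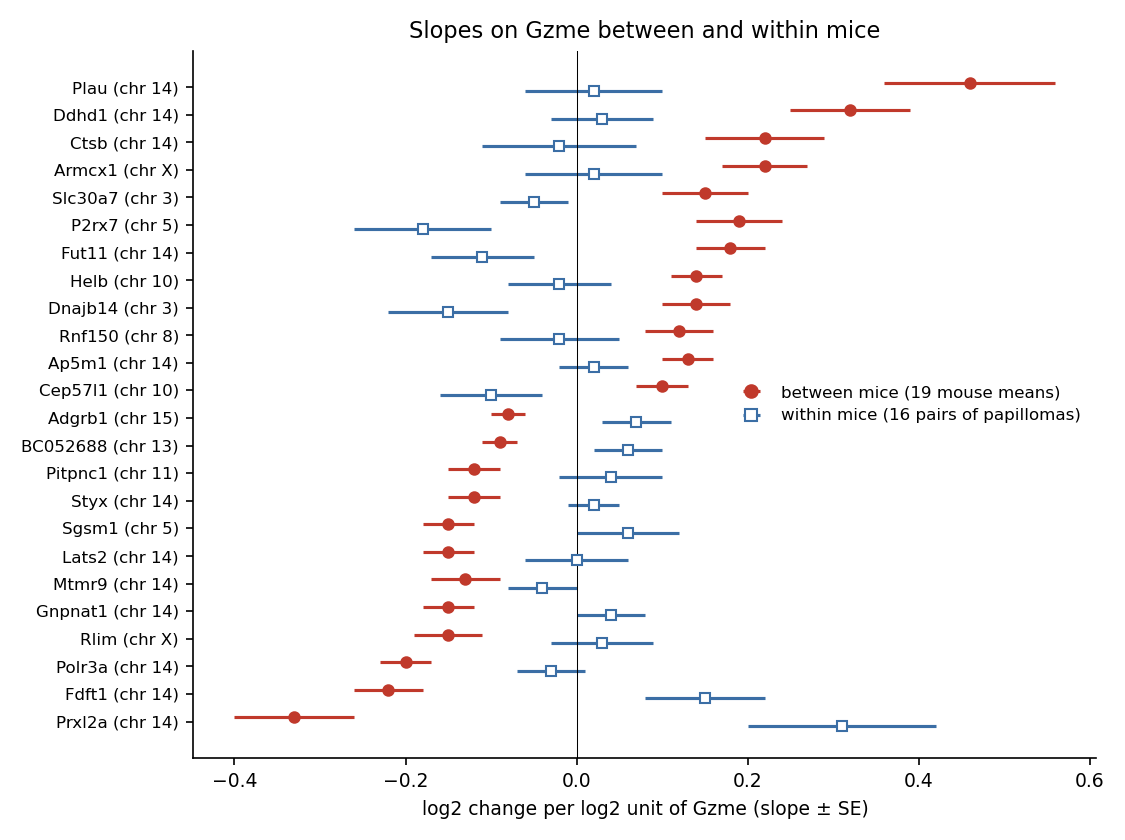
Slope on Gzme (log2 change per log2 unit of Gzme, horizontal axis, bars are ± SE) of the 24 genes of smallest p, between the means of the 19 intermediate mice (red circles) and between papillomas of the same mouse in 16 mice (blue squares). The slopes of Plau (second probeset, 0.46), Ddhd1 (0.32) and Polr3a (-0.20) between mice stand against 0.02, 0.03 and -0.03 within mice.

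Cell type markers were counted in lists of which each gene was represented by 1 probeset, and 0 members of any list passed an adjusted p of 0.05; counts below are at an unadjusted 0.05, which 5.26% of all probesets passed upwards and 3.1% downwards, and the median difference of all was 0.01. In whole papillomas, fewer cells of a type and less RNA per cell cannot be told apart. Markers of the cells that make granzymes differed little. Of 13 cytotoxic genes 9 were higher, 1 under 0.05, with a median difference of 0.16; of 12 T cell genes 8 were higher, 1 under 0.05 (Thy1, which fibroblasts also express) and Cd8a lower, with a median of 0.12. Most NK cell markers (7 of 10, among them Ncr1) and Gzma, Gzmk, Ifng and Klrk1 did not pass the filter on low values. The mean level of the cytotoxic list ran from 6.35 to 7.11 in high and from 6.22 to 7.12 in low mice, and that of the T cell list from 6.03 to 6.94 and from 5.89 to 6.51.

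Within these lists Klrd1, the CD94 chain of receptors on NK and cytotoxic T cells, stood apart. Its mouse means lay between 4.89 and 5.98 in high mice (median 5.45) and between 4.37 and 5.18 in low mice (median 4.73), 6 of 8 high mice above all low ones, a difference of 0.68 ± 0.16 (SE; limma, adjusted p = 0.473). Its level was near the array medians. Perforin (Prf1) differed by 0.00 with an unadjusted p of 0.984, Cd3e by -0.02 and Cd3g, a further chain of the T cell receptor complex, by 0.75 ± 0.40 (adjusted p = 0.631). Of 3 NK cell genes that passed the filter, Klrb1b and Cd7 differed by 0.30 and 0.37 and Il18rap by -0.23.

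All 14 fibroblast and matrix genes were higher in high Gzme mice and 11 of them had an unadjusted p under 0.05, with a median difference of 0.54. Postn, a matrix protein of remodelling stroma, lay at 12.20 to 13.17 in high and at 11.53 to 12.81 in low mice, with 6 of 8 high mice above all low ones (0.60 ± 0.20, SE; limma, adjusted p = 0.496). Dcn, the collagen-binding decorin, differed by 0.93 ± 0.34, Pdgfra, a receptor of fibroblasts, by 0.86 ± 0.29 and Lum by 0.70 ± 0.28.

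With start cohort as a fixed block, 1 of the 14 was under 0.05 and the median was 0.31; without the mice of doubtful sex label it was 5 of 14 and 0.44. Within cohorts 2, 6 and 7 Dcn differed by 0.81, 0.24 and 1.88. Within mice the list did not have 1 direction: between papillomas of the 16 intermediate mice 1 of 14 genes had a positive slope on Gzme (median -0.06), and without mouse 14 all 14 did (median 0.10), with 0 under 0.05 in either. In the 15 other mice all 14 slopes were positive and under 0.05, and without mouse 32 all 14 were positive and 7 under 0.05. The mean level of the list ran from 10.87 to 11.71 in high and from 10.12 to 11.38 in low mice, so the groups overlapped.

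Genes of adipocytes and sebaceous glands had the largest median, 0.92, with 8 of 9 higher and 5 under 0.05. Adipoq, the adipocyte hormone adiponectin, lay at 3.86 to 8.67 in high and 3.82 to 6.30 in low mice (1.82 ± 0.66, SE; limma adjusted p = 0.507), and Car3, a carbonic anhydrase of fat and muscle, at 7.01 to 11.69 and 3.90 to 10.43 (2.41 ± 0.93; adjusted p = 0.527). Within cohorts 2, 6 and 7 Adipoq differed by 3.36, 0.33 and 2.29 and Car3 by 4.74, -1.06 and 3.13. Leaving out mice 15, 21 and 24, 1 of 9 was under 0.05 and the median was 0.39. Within the 16 intermediate mice with pairs 8 of 9 had a positive slope on Gzme, 2 of them under 0.05 (median 0.10), and without mouse 14 also 8 of 9, 0 of them under 0.05 (median 0.09).

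Of 20 macrophage and Langerhans cell genes 18 were higher, 4 under 0.05, with a median of 0.55; Lyz2, lysozyme, differed by 0.82 ± 0.39 and Mrc1, the mannose receptor, by 0.85 ± 0.52 (SE; limma adjusted p = 0.596 and 0.689), and Cd207, which marks Langerhans cells, by 0.68. Mast cell genes were higher in 9 of 10, 2 of them under 0.05, with a median of 0.47: Cpa3, a carboxypeptidase of mast cell granules, differed by 0.87 ± 0.39 and Kit, their growth factor receptor, by 0.68 ± 0.25. With start cohort as a fixed block 0 mast cell genes (median 0.30) and 1 macrophage gene (median 0.60) were under 0.05. With coat as a term 6 of 10 (median 0.97) and 6 of 20 (median 0.77) were. Between papillomas of the 16 intermediate mice 0 of 10 mast cell and 4 of 20 macrophage genes had a positive slope on Gzme, and without mouse 14 these were 10 and 17. In the 15 other mice 6 mast cell genes, 0 under 0.05, and 19 macrophage genes, 11 under 0.05, had a positive slope. There 1 macrophage gene was negative and under 0.05. Without mouse 32 these positive slopes numbered 4 and 14, 0 and 2 of them under 0.05, and 1 mast cell gene was negative and under 0.05. All 7 MHC class I genes were higher, with a median of 0.25 and 1 under 0.05, B2m (0.38 ± 0.15). Of 10 endothelial genes 9 were higher, 2 under 0.05 (Esam, 0.33 ± 0.09). Between papillomas of the 16 intermediate mice 9 of the 10 had a positive slope on Gzme, 5 under 0.05, and without mouse 14 also 9, 2 under 0.05. In the 15 other mice all 10 were positive, 4 under 0.05, and without mouse 32 it was 9, 2 under 0.05. Over all 31 mice Esam had a slope of 0.14 ± 0.03 (SE; limma, adjusted p = 0.0375).

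Neutrophil genes (3 of 14 higher, median -0.09), the interferon response (11 of 21, 0.00) and B and plasma cell genes (1 of 3, -0.24) had 0 members under 0.05. So had hair keratins and striated muscle genes, although all 18 and all 14 of them were higher, with medians of 0.67 and 0.42. For Krt25, of the root sheath of hairs, the spread was large, 4.67 to 12.41 in high and 4.74 to 11.53 in low mice (2.01 ± 1.27, SE).

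Keratinocyte genes differed little between the groups. Of 30 cornified layer genes 23 were higher and 1, Krt77, was under 0.05 (1.61 ± 0.70, SE; limma adjusted p = 0.571), with a median of 0.18. Between papillomas of the 16 intermediate mice 24 of the 30 had a positive slope on Gzme, 8 under 0.05 (median 0.14). Without mouse 14 only 6 were positive, and 3 were negative and under 0.05 (median -0.07). In the 15 other mice 28 were negative and under 0.05 (median -0.57), and without mouse 32 this held for 17 (median -0.25). Basal epidermis genes (median 0.03; Itga3 -0.30 ± 0.11), genes of hyperplastic epidermis (-0.02), mitosis genes (7 of 24 higher, -0.05) and the Ras and ERK feedback genes (5 of 14 higher, -0.12; Etv4 -0.30 ± 0.10) had medians near that of all. Within mice, 5 of 13 hyperplastic epidermis genes had a positive slope under 0.05 in the 16 intermediate mice and 0 without mouse 14. In the 15 other mice 8 had a negative slope under 0.05, and 1 without mouse 32. With start cohort as a fixed block, 9 of the 24 mitosis genes were lower with an unadjusted p under 0.05 and 0 were higher with one (median -0.21). Leaving out the mice whose sex label was in doubt, 4 were lower in that way (median -0.15). Of 18 genes of invasion and progression 10 were higher, 3 under 0.05: Plau, Lgals1 and Mmp14, with differences of 2.09, 0.57 and 0.31. The genes that the study links to susceptibility were chosen on these samples and are not independent. Their list here also holds Cdcp1, which is not among the susceptibility genes the study tabulates. Several members, such as Ddx6 and Psme3, were represented by another probeset than the study names. Of the 23 listed, 8 were higher, 1 under 0.05 (Creg1, 0.44 ± 0.20), with a median of -0.01.

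**Figure D5:**
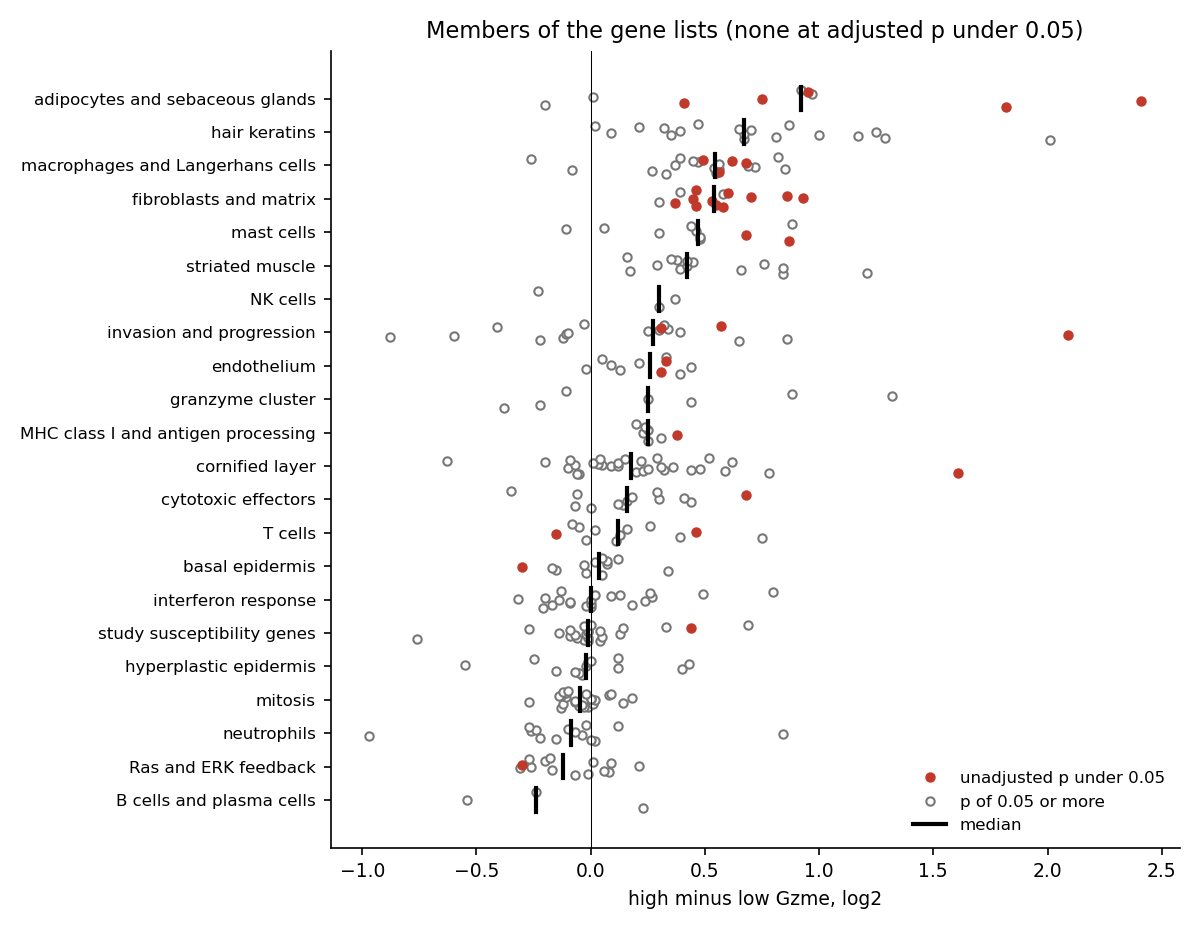
Difference between high and low Gzme mice (log2, horizontal axis) of each member of 22 gene lists, 1 probeset per gene; filled points have an unadjusted p under 0.05 and bars are list medians. Fibroblast and matrix genes hold 11 filled points of 14, all to the right, and adipocyte and sebaceous gland genes have the largest median, 0.92.

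The RNA quality of the groups was alike but for 1 mouse. The log2 ratio of the 3′ to the 5′ probeset of Actb, which rises where RNA is degraded, was 0.58 to 0.90 in high mice and 0.55 to 0.75 in low mice other than mouse 2, at 1.43. With this ratio as a term 29 probesets were under 0.001, 11 of them on chromosome 14.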

How the data were processed

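RNA of 68 papillomas of 37 mice was measured on Affymetrix Mouse Genome arrays. The deposited values are log2 levels per probeset, which the authors normalised by RMA (named in the submitters' processing notes, version not given in the sources used here); RMA sets the arrays to a common distribution, so changes in total RNA are not seen. Of 45101 probesets, 64 were controls, 34945 had 1 gene symbol in the platform annotation, 932 several and 9160 none. Levels were averaged per mouse, the replicate throughout. Tests used probesets with 1 symbol that lay above their own array's median on at least 11 of 68 arrays, which left 21560 of 12595 genes. The number of arrays and mice limits the precision.

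The difference between both groups was fitted in limma 3.58.1 (R 4.3.3). P-values were adjusted by Benjamini-Hochberg across every tested probeset, and the threshold was 0.05. Gzme as a numeric term was fitted over the 19 intermediate mice and over the 18 others with class as a term. Traits were compared by exact tests. Those of sex, coat and profiled carcinoma used scipy 1.17.1, and the permutation, start cohort and origin tests were coded directly. Promoters were aligned with Biopython 1.88 and figures drawn with matplotlib 3.10.9. The code was tested on simulated data.

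Named genes were the 12 of largest difference past the threshold in each direction, filled up by smallest p, the granzyme run, Il18, Spry2, Map2k4 and Tslp, up to 4 members of largest difference of each list, the 6 nearest tested genes on either side of Gzme and the 10 of highest correlation with it. Others, such as list members under 0.05, the chromosome 14 probesets under 0.001 and Kdm5c, were chosen after their values were seen. The members and lists were chosen with earlier results of these data known. Alternatives changed the filter, group size, ranking probeset, covariates, scaling, unit and mice. The origin labels, the fixed cohort block, the slopes within mice and the chromosome and list counts under other settings were added after seeing the data.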

Additional observations from a re-analysis of the deposited data

Results flagged for a closer look

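Among 270 groups of 8 mice examined, 17 (6.3%) had 1 mouse far from the other 7, where chance gives about 1 in 20. Of these 17, 4 were mouse 27 of the high group. It stood at 6.88 for Krt13, a keratin of internal epithelia, where the others lay between 12.54 and 14.09, and at 5.80 for the defensin Defb4 (others 8.96 to 11.2). It was highest for Gzmc at 4.44 (others 3.22 to 3.75) and for Map2k4 at 10.18 (others 9.42 to 9.77). In the same group mouse 23 was low for Postn at 12.20 (others 12.72 to 13.17).

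In the low group mouse 3 stood apart for Ctsg at 5.67 (others 4.68 to 5.14), Hbegf at 9.56 (10.62 to 11.41) and Dusp5 at 7.80 (9.15 to 9.74). Mouse 22 was highest for Gzmd at 2.94 (2.62 to 2.73), Tap2 at 7.93 (7.2 to 7.53) and Akr1b10 at 8.85 (5.92 to 6.51). Mouse 15 was lowest for Spry2 at 7.11 (7.83 to 8.38) and Dusp4 at 4.83 (6.55 to 8.05). Mouse 25 was highest for Mapk8 (the probeset most like Gzme) at 5.44 (4.38 to 4.65), mouse 26 for Cep57l1 at 5.65 (5.07 to 5.33) and mouse 19 for the muscle gene Tnnc2 at 10.12 (4.6 to 6.91). The 3′ to 5′ ratio of Actb was 1.43 in mouse 2 (0.55 to 0.75). All levels are log2 means per mouse.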

How the results depend on the processing

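The 24 genes of smallest p kept their direction in 744 of 744 values over 31 settings, 3 of them past the adjusted threshold. These genes were chosen in the same mice that the settings mostly refit, so a kept direction was likely beforehand and is no independent support. Of the 40 probesets under an unadjusted 0.001, 5 were still under it with coat as a term and 6 with start cohort as a fixed block. Probesets at an adjusted p of 0.05 in limma numbered 0, against 1 with Gzme as a numeric term, 3 over arrays with mouse as a random block, and 0 to 1 when 1 mouse was left out (1 without mouse 25). Polr3a then had -0.20 per unit and -0.64, and Fdft1 -0.73, the latter both over arrays. The 40 probesets under an unadjusted 0.001 became 74 without the filter, 103 with 9 mice a group, 24 with coat as a term, 74 over arrays, 22 with the first papilloma alone and 24 with start cohort as a fixed block, and 17 (without mouse 24) to 71 (without mouse 21 or 19) with 1 mouse left out. Those on chromosome 14, 14 in all, became 23 with 6 mice a group, 0 with coat, 22 over arrays, 9 with the first papilloma, 6 with the cohort block, and 6 (without mouse 16) to 22 (without mouse 3) with 1 mouse left out. Slopes within mice gave 0 adjusted calls in intermediate mice, 1003 in the 15 other mice and 35 over all 31; without mouse 32 the other mice gave 0. The cause of these changes was not tested, except that leaving out mice leaves fewer samples. No paired analysis was possible because each mouse belongs to 1 group and papilloma numbers do not pair high with low mice; pairs of papillomas entered the slopes within mice alone. Genes below their array's median, such as Gzmd, lie near the background of the array.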
